A study of Mus musculus with 12 samples.

Results

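The enzymes that write and erase methyl and acetyl groups on histones and DNA, with a few proteins that read these marks, were described in keratinocytes sorted from mouse skin. The 45 genes were taken by symbol from a list that was chosen with earlier results of these data known. No gene was dropped for its values. All 45 were among the 38689 genes that stand alone on a transcript cluster of the array, the set of probes that reads 1 gene. By role they were 4 genes of Polycomb repressive complex 2, 1 gene of Polycomb repressive complex 1, 8 genes of histone H3 lysine 9 methylation and its readers, 4 of lysine 4 methylation, 4 of lysine 36 or lysine 79 methylation, 7 histone demethylases, 7 acetyltransferases, 5 deacetylases and 5 genes that add methyl groups to DNA or oxidise them. Hdac4 has 2 clusters, of which the brighter was used, and the cluster of Cbx3 is also listed for a pseudogene, so its values are uncertain. The array also holds a gene much like Hdac1, whose signal could be shared with it.

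The mice were of the FVB/N strain and 4 days old, and cells were isolated from skin and sorted before RNA extraction. The 4 groups of 3 arrays were wild-type basal, wild-type suprabasal, bitransgenic basal and bitransgenic suprabasal keratinocytes. The series title names progerin, a truncated lamin A that is made in Hutchinson-Gilford progeria, but the sample labels name neither the transgenes nor the promoter that drives them, so what bitransgenic cells carry beyond that word is not known here. Basal cells of the epidermis divide, and suprabasal cells have left the basal layer and mature. Arrays are named by the code in their titles. The wild-type codes were X667_06, X682_11 and X721_08 in both layers, and the bitransgenic codes were X721_05, X667_05 and X722_07 in the basal layer and X721_05, X667_05 and X682_05 in the suprabasal layer. Values of an array are given below in these orders. No label says that the arrays came from separate animals, so the p-values cover only the spread among these samples, which may be technical.

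Each array gave a log2 signal for 65956 clusters, with medians of 5.28 to 5.46. The 95th percentile of intronic control probe sets on each array, between 8.04 and 8.81, served as a background mark; it is strict, because introns are transcribed too. Of the 45 genes, 15 lay above it on all 12 arrays, 21 on some and 9 on none: Suz12, Suv39h1, Suv39h2, Kdm2b, Kdm4a, Kat2b, Sirt1, Dnmt3b and Tet2. Of all clusters, 4093 lay above it on all arrays and are called the bright clusters here. For genes at or below the mark the log2 difference is given as measured, with no fold. The keratins of both layers were bright, with Krt14 at 12.71 to 13.49 and Krt10 at 12.60 to 13.50 on all arrays. Between wild-type layers Krt14 was higher in basal cells by 0.27 without overlap, and Krt10 overlapped (-0.17). All 11 suprabasal keratinocyte genes had lower means in basal cells, with a median of -0.56. Of 9 basal keratinocyte genes 8 had higher means there, with a median of 0.43. With limma 1 of the 11 was called lower, against 1.04% of all clusters, and 0 of the 9 higher, against 0.406%. The layers were not pure: 8 melanocyte genes had a mean level of 5.98 to 7.07 on the basal arrays and of 7.68 to 11.32 on the suprabasal arrays, with Dct, a melanin enzyme, at 6.24 to 8.04 and 9.14 to 12.98. Lists for fibroblasts, endothelial, immune and Merkel cells had mean levels of at most 6.85 on every array. Between wild-type layers the fibroblast, endothelial and Merkel lists were lower on basal arrays without overlap, and the immune list overlapped. The fibroblast list lay at 5.98 to 6.32 against 6.66 to 6.85. With limma, 1 of 8 fibroblast and 1 of 6 Merkel genes were called lower in basal cells, against 1.04% of all clusters. All wild-type arrays and both X721_05 arrays had the male pattern of Xist and Ddx3y, and the female one was found on the 4 remaining bitransgenic arrays, with Xist at 10.69 to 11.08 against 4.09 to 4.28. Lmna, the gene of lamin A, ranged from 10.71 to 11.06 in basal cells and from 10.55 to 10.84 in suprabasal cells, with overlapping genotypes, and no source says whether its probes read the transgene.

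Methylation of histone H3 on lysine 9 marks compact, silent heterochromatin, and methylation on lysine 27, written by Polycomb repressive complex 2, holds developmental genes silent, whereas methylation on lysine 4 and acetylation go with active promoters and enhancers. In the epidermis, Polycomb proteins, histone deacetylases and DNA methyltransferases are known for keeping basal progenitor cells dividing and delaying differentiation genes. Heterochromatin is tethered to the nuclear lamina, and cells of people with progeria are known to lose parts of it, a background fact about that disease and not about these mice. In bulk RNA, fewer cells of a type and less RNA per cell cannot be told apart.

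Promoter windows are shown first for the 6 genes whose letters hold a motif of E2F, the factor that drives genes of DNA replication. RefSeq (GRCm38.p6) gave windows of 250 bases before to 50 bases after the start for 37 of the 45 genes. The words TTTCCCGC, TTTCGCGC, TTTGCCGC and TTTGGCGC, none of which contains another word searched, were looked for on both strands, a choice made with the results known. A match was in windows of 2.61% of the 27025 genes in the table and of 6 of the 37 genes: Ezh2, Suz12, Suv39h1, Dnmt1, Cbx3 and Kat2a. The capitals mark the matches, each window is written on the strand of its gene, and a match on the other strand reads as the reverse complement. The windows lie at chrX:8074312-8074611 (minus strand) for Suv39h1, chr6:47594981-47595280 (minus) for Ezh2, chr11:79992856-79993155 (plus) for Suz12, chr9:20952574-20952873 (minus) for Dnmt1, chr6:51470366-51470665 (plus) for Cbx3 and chr11:100712418-100712717 (minus) for Kat2a.
Suv39h1: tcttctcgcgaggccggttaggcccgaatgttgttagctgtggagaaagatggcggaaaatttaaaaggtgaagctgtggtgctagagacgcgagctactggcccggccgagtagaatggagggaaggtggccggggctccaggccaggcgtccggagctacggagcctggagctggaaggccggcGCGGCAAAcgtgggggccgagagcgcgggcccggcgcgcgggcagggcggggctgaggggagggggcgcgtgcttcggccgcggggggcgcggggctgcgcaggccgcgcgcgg
Ezh2: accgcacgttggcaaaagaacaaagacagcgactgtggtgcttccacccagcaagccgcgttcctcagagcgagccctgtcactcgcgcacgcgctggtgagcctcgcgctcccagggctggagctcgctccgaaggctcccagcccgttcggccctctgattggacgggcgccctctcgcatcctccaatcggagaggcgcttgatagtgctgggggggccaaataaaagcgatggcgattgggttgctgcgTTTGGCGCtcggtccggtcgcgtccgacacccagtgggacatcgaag
Suz12: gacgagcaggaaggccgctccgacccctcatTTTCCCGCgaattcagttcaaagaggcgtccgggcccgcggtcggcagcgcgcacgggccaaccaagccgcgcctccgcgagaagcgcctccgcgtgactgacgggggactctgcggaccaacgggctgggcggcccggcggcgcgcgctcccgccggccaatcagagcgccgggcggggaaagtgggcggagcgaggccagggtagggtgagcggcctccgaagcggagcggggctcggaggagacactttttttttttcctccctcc
Dnmt1: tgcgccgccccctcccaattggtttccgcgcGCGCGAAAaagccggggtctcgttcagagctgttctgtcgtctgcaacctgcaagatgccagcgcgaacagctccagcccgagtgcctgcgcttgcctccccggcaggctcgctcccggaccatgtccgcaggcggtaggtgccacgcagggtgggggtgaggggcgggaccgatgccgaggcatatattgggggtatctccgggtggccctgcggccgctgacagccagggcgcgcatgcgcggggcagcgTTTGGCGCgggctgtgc
Cbx3: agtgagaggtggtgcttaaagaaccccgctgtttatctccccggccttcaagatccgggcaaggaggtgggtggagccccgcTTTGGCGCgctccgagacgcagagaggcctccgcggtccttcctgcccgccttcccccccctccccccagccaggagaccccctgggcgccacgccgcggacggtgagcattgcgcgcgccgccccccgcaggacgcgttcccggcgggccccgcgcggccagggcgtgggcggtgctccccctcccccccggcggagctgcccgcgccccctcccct
Kat2a: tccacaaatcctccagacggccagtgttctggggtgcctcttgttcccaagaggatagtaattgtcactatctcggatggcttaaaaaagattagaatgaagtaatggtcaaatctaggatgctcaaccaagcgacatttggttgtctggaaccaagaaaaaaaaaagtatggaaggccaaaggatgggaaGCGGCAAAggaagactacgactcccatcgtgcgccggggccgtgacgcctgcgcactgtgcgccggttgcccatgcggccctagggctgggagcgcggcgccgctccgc
The window of Dnmt1 holds 2 matches and each of the others 1. The match lies at bases 187 to 194 of the window of Suv39h1, 254 to 261 of Ezh2, 32 to 39 of Suz12, 83 to 90 of Cbx3 and 192 to 199 of Kat2a, and at 32 to 39 and 284 to 291 of Dnmt1. Of these 6 genes, 4 had wild-type layers without overlap, with basal higher, and those of Cbx3 and Kat2a overlapped. The share without overlap in that direction was 35.6% of the 45 genes, 7.38% of all clusters and 18.9% of the bright clusters. A link between the matches and the layers was not tested. The matches describe letters and do not show binding. As further words, TTTGAA was in windows of 20.2% of all genes and of 7 of the 37, and CCAAT in windows of 41.1% of all genes and of 16 of the 37.

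The basal and suprabasal layers of wild-type skin were compared first. Suv39h1, which writes the heterochromatin mark on lysine 9, was the 1 gene of the 45 that passed the test: it was higher in basal cells by 0.47 ± 0.09 (log2, SE; limma adjusted p = 0.0436 over all clusters, n = 3 against 3). Suv39h1 read 7.83, 8.12 and 7.88 on the basal arrays and 7.59, 7.49 and 7.35 on the suprabasal arrays. All basal values lay above all suprabasal ones, although every value of this X-linked gene was below the background mark. The call is fragile: leaving out any of 8 of the 12 arrays ends it, and over 27 other settings it passed in 11. Among these, the series matrix and the mean of all clusters of a gene leave the values of Suv39h1 unchanged and are not separate checks. In those of the settings that used limma, the limma adjusted p of Suv39h1 ran from 0.0227 to 0.146. In the settings that did not use limma it did not pass. With a random replicate block by the code, 5 genes were called higher in basal cells: Suv39h1 at limma adjusted p = 0.0227, Suz12 at 0.0332, Ehmt1 at 0.0400, Hdac3 at 0.0402 and Ezh2 at 0.0435. That random block called 3600 of all 65956 clusters, against 957 in the main fit. With a fixed replicate block 0 of the 45 genes and 0 of all clusters were called. The methods' t-test, the unpaired test that the series design names, gave 0 of 45 and 0 of all clusters after Benjamini-Hochberg.

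Of the 45 genes, 37 had a higher mean in wild-type basal cells and 8 a higher mean in suprabasal cells, with a median log2 difference of 0.18. The median was -0.05 over all clusters and 0.11 over the bright clusters, 79% of which were higher in basal cells, against 82.2% of the 45. Only 15 of the 45 are themselves bright clusters, and of these 12 were higher and 3 lower in basal cells. The likeness depends on scaling: after cyclic loess the median was 0.10 over the 45 genes and -0.01 over the bright clusters. The test called 0.406% of all clusters higher and 1.04% lower, against 1 and 0 of the 45. At an unadjusted p under 0.05 it found 16 genes higher (35.6%) and 1 lower (2.2%), against 6.08% and 16.7% of all clusters and 14.5% and 7.0% of the bright clusters. The groups did not overlap, with basal higher, in 16 genes (35.6%), against 7.38% of all clusters and 18.9% of the bright clusters. Groups without overlap, basal lower, were seen in 2 genes (4.4%), against 20.2% of all and 7.28% of the bright clusters.

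**Figure D1:**
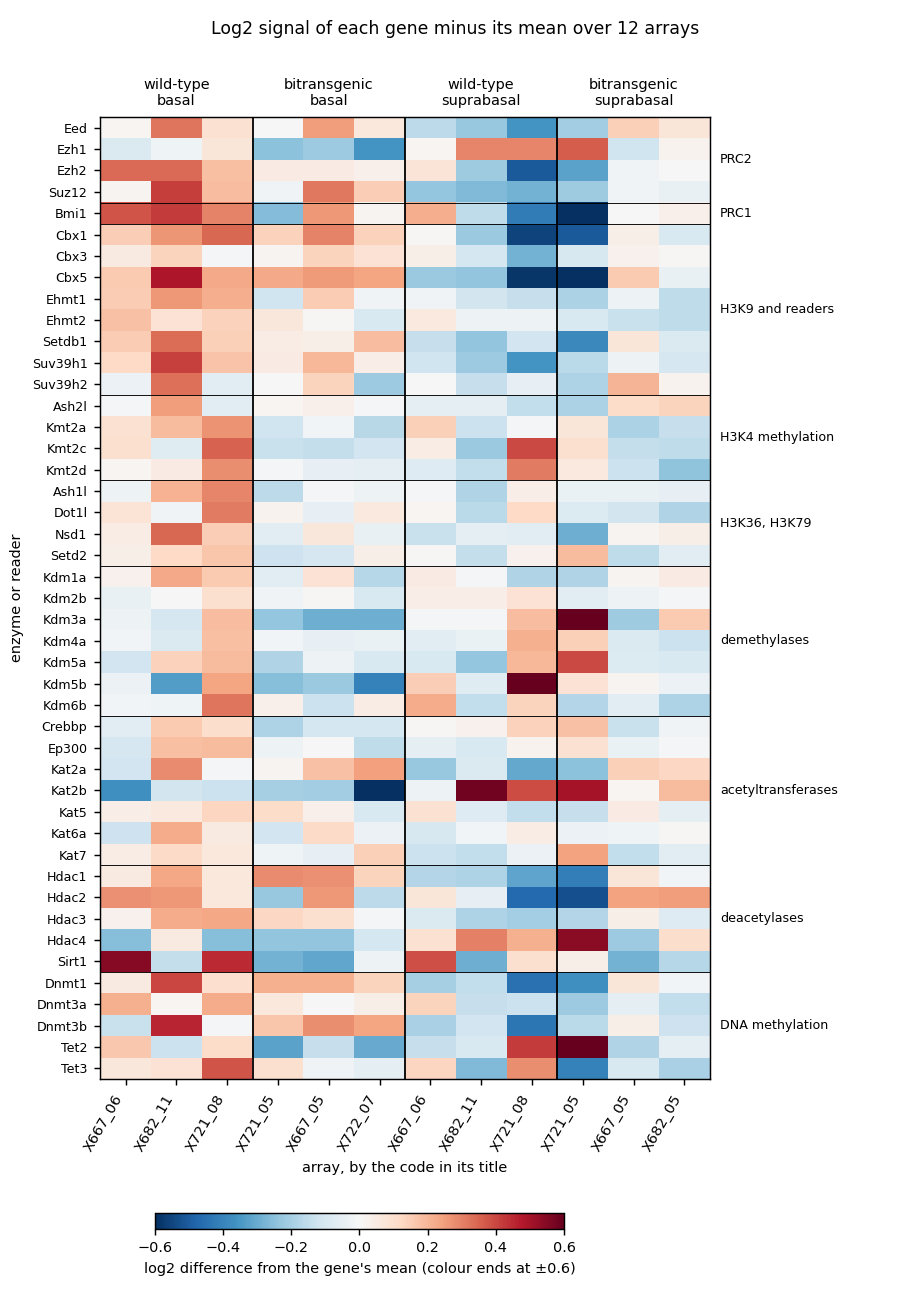
Log2 signal of 45 chromatin genes on 12 arrays, each minus the gene's mean over all arrays; rows are grouped by role, columns by group, and colour runs from blue (lower) to red (higher). Wild-type basal arrays are mostly red for the Polycomb and lysine 9 genes, and the suprabasal arrays X721_08 and X721_05 stand out in both directions.

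Polycomb repressive complex 2 was measured through Ezh2 and Ezh1, its alternative catalytic subunits, and Eed and Suz12, the subunits that hold the complex together. Ezh2, the form of dividing cells, read 9.51, 9.51 and 9.35 in wild-type basal cells and 9.25, 8.96 and 8.67 in suprabasal cells. The groups did not overlap, with a log2 difference of 0.50 ± 0.13 that missed the threshold (limma adjusted p = 0.0765). Suz12 read 7.55, 7.95 and 7.72 in basal cells and 7.30, 7.27 and 7.25 in suprabasal cells, also without overlap (0.47 ± 0.11, limma adjusted p = 0.0607). Eed read 9.75, 10.06 and 9.83 against 9.58, 9.51 and 9.38, a difference of 0.39 ± 0.11 with no overlap (limma adjusted p = 0.0910). Ezh1, the form found in non-dividing cells, pointed the other way: it read 8.82, 8.88 and 8.98 in basal cells and 8.92, 9.20 and 9.20 in suprabasal cells, with overlap (-0.21 ± 0.12, limma adjusted p = 0.312). Bmi1, a core subunit of Polycomb repressive complex 1, read 8.98, 9.02 and 8.90 against 8.82, 8.45 and 8.18, and its 3 basal values lay above all suprabasal ones (0.48 ± 0.22, limma adjusted p = 0.230).

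All 8 genes of lysine 9 methylation and its readers had a higher mean in wild-type basal cells, with a median difference of 0.34 and a range of 0.14 to 0.64. The writers beside Suv39h1 are Suv39h2, its sister enzyme, Setdb1, which silences repeats, and Ehmt1 and Ehmt2, partners that write the lighter mark in gene-rich chromatin. Ehmt1 read 8.57, 8.68 and 8.64 in basal cells and 8.40, 8.31 and 8.28 in suprabasal cells, with no overlap (0.30 ± 0.08, limma adjusted p = 0.0715). Setdb1 read 8.68, 8.86 and 8.67 against 8.39, 8.29 and 8.41 (0.37 ± 0.11, limma adjusted p = 0.0887). Ehmt2 differed by 0.14 ± 0.06 without overlap, and Suv39h2 by 0.14 ± 0.13 with overlap.

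The readers are Cbx5, Cbx1 and Cbx3, the 3 forms of heterochromatin protein 1, which bind methylated lysine 9. Cbx5 differed by 0.64 ± 0.18 as measured, which missed the threshold (limma adjusted p = 0.0865), with only 1 basal array and 0 of 3 suprabasal arrays above the background mark. It read 8.26, 8.59 and 8.33 in basal cells and 7.88, 7.87 and 7.52 in suprabasal cells, with no overlap. Cbx1 read 8.83, 8.95 and 9.03 against 8.69, 8.46 and 8.13, again with no overlap (0.51 ± 0.16, limma adjusted p = 0.0989). Cbx3 differed by 0.18 ± 0.08, and its groups overlapped.

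**Figure D2:**
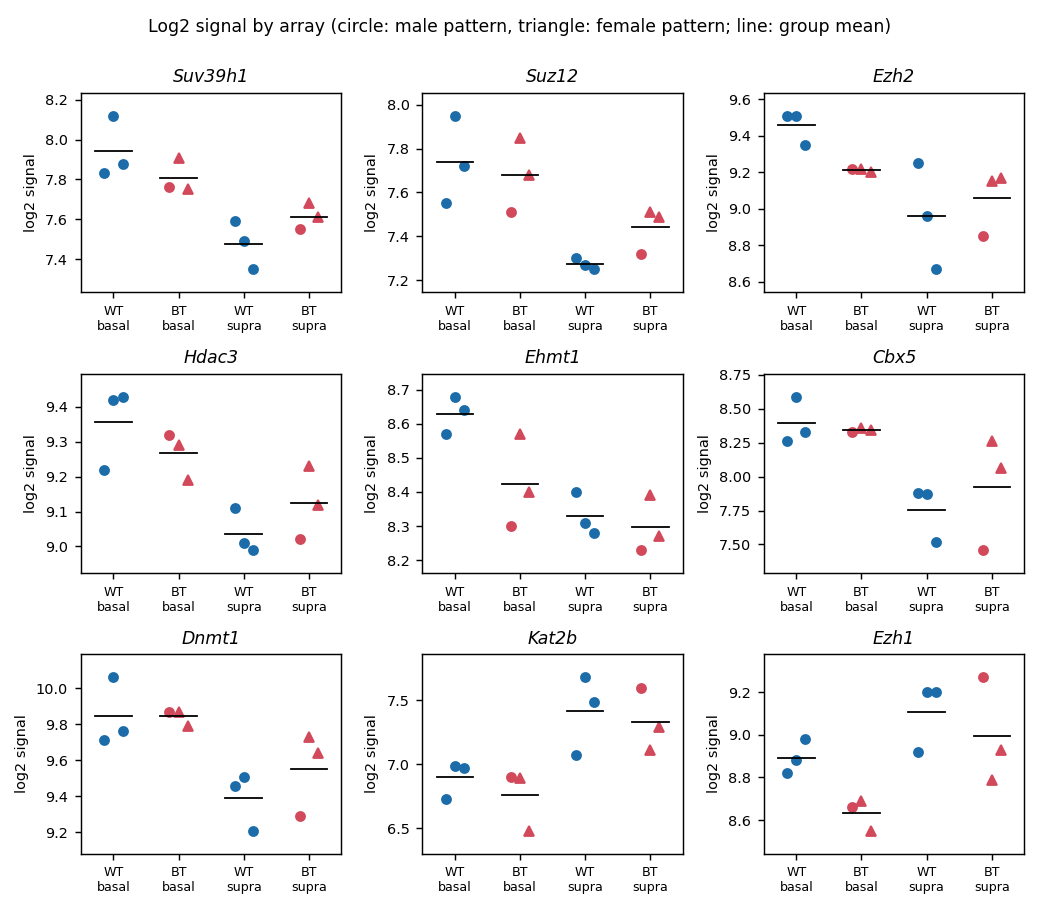
Log2 signal by array of 9 genes in the 4 groups (WT, wild type; BT, bitransgenic; supra, suprabasal); circles are arrays with the male and triangles with the female pattern of Xist and Ddx3y, and black lines are group means of 3 arrays. The first 7 genes have their highest mean in a basal group, and Kat2b and Ezh1 in wild-type suprabasal cells; each panel has its own scale.

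Among enzymes of DNA methylation, Dnmt1, which copies methylation at replication, read 9.71, 10.06 and 9.76 in wild-type basal cells and 9.46, 9.51 and 9.21 in suprabasal cells. It did not overlap (0.45 ± 0.13, 1.37-fold, limma adjusted p = 0.0880). Dnmt3b, which sets new methylation, read 6.69, 7.28 and 6.81 against 6.63, 6.71 and 6.39, with overlap (0.35 ± 0.14). Dnmt3a, the other new-methylation enzyme, differed by 0.19 ± 0.09. The 5-methylcytosine oxidases Tet2 and Tet3 differed by -0.02 ± 0.21 and 0.13 ± 0.14.

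The deacetylases Hdac1, Hdac2 and Hdac3 are subunits of corepressor complexes, Hdac4 shuttles between nucleus and cytoplasm, and Sirt1 depends on NAD. Hdac3 read 9.22, 9.42 and 9.43 in wild-type basal cells and 9.11, 9.01 and 8.99 in suprabasal cells, with no overlap (0.32 ± 0.08, limma adjusted p = 0.0645). Hdac1 read 9.21, 9.39 and 9.22 against 8.98, 8.97 and 8.84, with no overlap (0.34 ± 0.12, limma adjusted p = 0.122). Hdac2 overlapped (0.35 ± 0.22), as did Sirt1 (0.22 ± 0.20). Hdac4 was the deacetylase with higher suprabasal values: 8.68, 8.99 and 8.68 in basal cells against 9.03, 9.24 and 9.15, with no overlap (-0.36 ± 0.16, limma adjusted p = 0.222). Its second cluster, at 7.27 to 8.25, differed by -0.29.

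The 7 acetyltransferases were Crebbp and Ep300, the broad coactivators, and Kat2a, Kat2b, Kat5, Kat6a and Kat7, the catalytic subunits of separate complexes. Kat2b was the 1 gene of the 45 with a lower basal mean and an unadjusted p under 0.05: it read 6.73, 6.99 and 6.97 in wild-type basal cells and 7.07, 7.68 and 7.49 in suprabasal cells (-0.52 ± 0.18, limma adjusted p = 0.128). Its groups did not overlap, and it lay below the mark on all 12 arrays. Kat2a, its close relative, read 9.05, 9.45 and 9.16 against 8.94, 9.08 and 8.86, a difference of 0.26 ± 0.13 with overlap. Kat7 did not overlap (0.18 ± 0.10), and the other acetyltransferases differed by 0.01 to 0.13 with overlap.

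The 4 genes of lysine 4 methylation and the 4 of lysine 36 or lysine 79 methylation had small differences, of 0.05 to 0.18 and 0.13 to 0.26. Kmt2a, Kmt2c and Kmt2d are lysine 4 methyltransferases and Ash2l is a subunit they share, and each of the 4 overlapped. Nsd1, a lysine 36 methyltransferase, read 9.19, 9.49 and 9.29 in wild-type basal cells and 9.01, 9.09 and 9.08 in suprabasal cells, without overlap (0.26 ± 0.10, limma adjusted p = 0.156). Setd2, which writes the trimethyl mark on lysine 36 of transcribed genes, did not overlap (0.14 ± 0.09), whereas Ash1l, another writer on lysine 36, and Dot1l, the writer on lysine 79, did. The 7 demethylases, Kdm1a, Kdm2b, Kdm3a, Kdm4a, Kdm5a, Kdm5b and Kdm6b, had a median difference of -0.01, and all overlapped. Kdm1a removes methyl groups from lysine 4, Kdm4a from lysine 9 and lysine 36, and Kdm6b from lysine 27; they differed by 0.19 ± 0.10, -0.01 ± 0.10 and 0.02 ± 0.12. Kdm5b, an eraser of the lysine 4 mark, had the lowest value among them, -0.36 ± 0.21, and its suprabasal readings of 8.62, 8.40 and 9.35 spread widely.

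The proliferation genes moved with these differences. The 21 genes of that list had a median of 1.02 between wild-type layers, 5 of them called higher in basal cells, and their mean level was 9.0 to 9.4 on the wild-type basal arrays and 7.56 to 8.50 on the suprabasal ones. Mki67, a marker of cycling cells, read 11.33, 11.48 and 11.24 in basal cells and 10.50, 10.28 and 9.70 in suprabasal cells. Melanocyte genes moved the other way, with a median of -4.92 and 5 of 8 called lower in basal cells. The part of either in the differences of the 45 genes was not tested.

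In bitransgenic cells the same comparison called 0 of 45 genes in either direction, with limma, where 0% of all clusters were called higher and 0% lower. The median difference was 0.06, against 0.02 over all clusters and 0.01 over the bright ones, with 25 genes above 0 and 19 below. At an unadjusted p under 0.05 it found 5 genes higher and 3 lower in basal cells, against 4.33% and 3.12% of all clusters. The groups did not overlap in 10 genes with basal higher, against 8.08% of all and 6.35% of the bright clusters. They did not overlap in 4 genes with basal lower, against 4.27% of all and 4.57% of the bright clusters.

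Cbx5 read 8.33, 8.36 and 8.34 in bitransgenic basal cells and 7.46, 8.26 and 8.06 in suprabasal cells, with no overlap (0.42 ± 0.18, limma adjusted p = 0.656). Cbx1 read 8.82, 8.98 and 8.82 against 8.18, 8.72 and 8.59 (0.38 ± 0.16), and Hdac1 read 9.44, 9.43 and 9.29 against 8.74, 9.23 and 9.14 (0.35 ± 0.12, limma adjusted p = 0.605), both without overlap. Dnmt1 and Dnmt3b differed by 0.29 ± 0.13 and 0.31 ± 0.14, and neither overlapped. Suv39h1 read 7.76, 7.91 and 7.75 against 7.55, 7.68 and 7.61, also without overlap, a difference of 0.19 ± 0.09.

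On the suprabasal side, Kat2b read 6.90, 6.89 and 6.48 in bitransgenic basal cells and 7.60, 7.11 and 7.29 in suprabasal cells (-0.58 ± 0.18, limma adjusted p = 0.605). Its groups did not overlap in either genotype. Ezh1 read 8.66, 8.69 and 8.55 against 9.27, 8.79 and 8.93, with no overlap (-0.36 ± 0.12). Kdm3a, an eraser of lysine 9 methylation, read 9.01, 8.95 and 8.95 against 9.90, 9.03 and 9.40, with no overlap (-0.47 ± 0.17), while its wild-type difference was -0.04 ± 0.17. The proliferation list had a median of 0.58 and 0 of 21 called here.

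**Figure D3:**
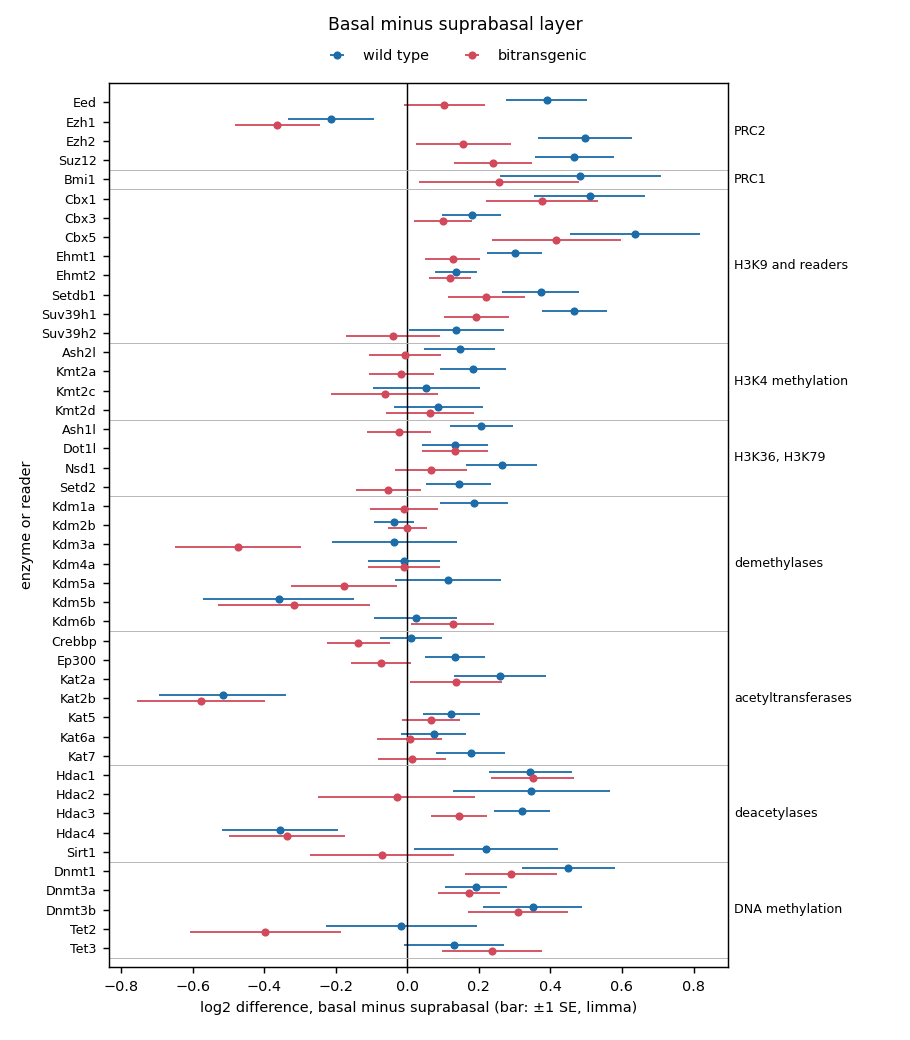
Log2 difference of basal minus suprabasal signal for 45 genes by role in wild type (blue) and bitransgenic cells (red), as estimates with bars of ±1 SE from the limma fit. Polycomb, lysine 9, Hdac1, Hdac3 and Dnmt genes lie right of 0 in wild type, apart from Ezh1, while Kat2b, Hdac4, Ezh1 and Kdm5b lie left of 0 in both.

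The suprabasal arrays X721_08 of the wild type and X721_05 of the bitransgenic cells stood apart from the other suprabasal arrays for many genes. Cbx5 read 7.52 and 7.46 on them and 7.87 to 8.26 on the other suprabasal arrays. Bmi1 read 8.18 and 7.82 against 8.45 to 8.82, and Hdac2 read 8.90 and 8.84 against 9.32 to 9.62. Both arrays were also the lowest suprabasal ones for Cbx1, Dnmt1 and Ezh2. In the other direction, Kdm5a, an eraser of lysine 4 methylation, read 8.59 and 8.79 against 8.16 to 8.31, and Tet2 read 8.22 and 8.47 against 7.62 to 7.74. The proliferation list was lowest on both, at 7.56 and 8.04 against 8.47 to 8.99, and the background mark was highest, at 8.71 and 8.81 against 8.04 to 8.48. The basal keratinocyte list was also lowest on both, at 10.14 and 9.60 against 10.20 to 10.60. The suprabasal keratinocyte list was highest on both, at 11.35 and 11.15 against 10.65 to 10.98. What part these have in the readings was not tested. Leaving out X721_05 of the suprabasal bitransgenic arrays raised the calls between wild-type layers from 1 to 8 of the 45 genes. Over all 65956 clusters the calls rose from 957 to 2903. Leaving out X721_08 of the wild-type suprabasal arrays lowered both counts to 0.

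The effect of the bitransgenic genotype was compared within each layer. In basal cells 0 of 45 genes were called in either direction with limma, where 0% of all clusters were called higher and 0% lower. The means were lower in bitransgenic cells for 40 genes (88.9%), higher for 4 and equal for Dnmt1, with a median difference of -0.14. The median was 0.04 over all clusters and -0.02 over the bright clusters, of which 55.0% were lower. At an unadjusted p under 0.05 it found 0 genes higher and 6 lower (13.3%), against 9.38% and 3.73% of all clusters and 3.3% and 6.6% of the bright clusters. Groups without overlap, bitransgenic lower, were seen in 10 genes (22.2%), against 5.01% of all and 11.5% of the bright clusters. They did not overlap, with bitransgenic higher, in 0 genes, against 11.8% of all and 5.03% of the bright clusters. Without wild-type basal X682_11, 12 genes had a difference above 0, against 3 to 6 without any other array. The median stayed between -0.17 and -0.10 with any 1 array left out.

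The smallest p was that of Kmt2a, the lysine 4 methyltransferase of the trithorax group. It read 8.94, 9.04 and 9.12 on the wild-type basal arrays against 8.73, 8.83 and 8.68 on the bitransgenic ones. The groups did not overlap, and the difference was -0.29 ± 0.09, 1.22-fold higher in wild type, which did not pass the test (limma adjusted p = 0.265). Its relatives Kmt2c and Kmt2d also did not overlap, at -0.26 ± 0.15 and -0.15 ± 0.12. Crebbp read 10.03, 10.25 and 10.20 against 9.91, 9.99 and 9.99, without overlap (-0.20 ± 0.09, limma adjusted p = 0.372). Ehmt2 lay between 8.95 and 9.04 in wild type, above its bitransgenic readings of 8.93, 8.87 and 8.77. Ehmt1 read 8.57, 8.68 and 8.64 against 8.30, 8.57 and 8.40, so both groups hold the value 8.57. The differences of Ehmt2 and Ehmt1 were -0.14 ± 0.06 and -0.21 ± 0.08 (limma adjusted p = 0.355 and 0.321). Ash1l read 8.75, 8.99 and 9.07 against 8.62, 8.77 and 8.75, with overlap (-0.22 ± 0.09).

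Sirt1, which lay above the background mark on no array, differed by -0.49 ± 0.20 as measured (limma adjusted p = 0.347). It read 8.48, 7.79 and 8.38 on the wild-type arrays against 7.65, 7.62 and 7.90 on the bitransgenic ones, so the groups overlapped at the wild-type array X682_11, whose suprabasal partner was also the lowest wild-type array, at 7.64 against 8.32 and 8.03. Ezh2 read 9.22, 9.22 and 9.20 in bitransgenic basal cells against 9.35 to 9.51 in wild type, without overlap (-0.24 ± 0.13). Ezh1 (-0.26 ± 0.12), Kdm3a (-0.29 ± 0.17), Tet2 (-0.30 ± 0.21) and Bmi1 (-0.36 ± 0.22) did not overlap either. The 4 genes with higher means were Hdac1, Kat2a, Dnmt3b and Cbx3, with differences of 0.02 to 0.12 and overlap in each. The proliferation list had a median of -0.02 here, with mean levels of 9.0 to 9.4 (wild type) and 8.98 to 9.32 (bitransgenic) on basal arrays. The 9 basal keratinocyte markers had a median of -0.20 with 0 of 9 called, and their mean level was 10.68 to 10.89 and 10.52 to 10.57; the 8 melanocyte markers were higher in bitransgenic basal cells by 0.09 to 0.53, with 0 of 8 called. The part of either list in the values of the 45 genes was not tested. On the male-pattern arrays alone, 3 wild-type and 1 bitransgenic, the median of the 45 genes was -0.12.

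**Figure D4:**
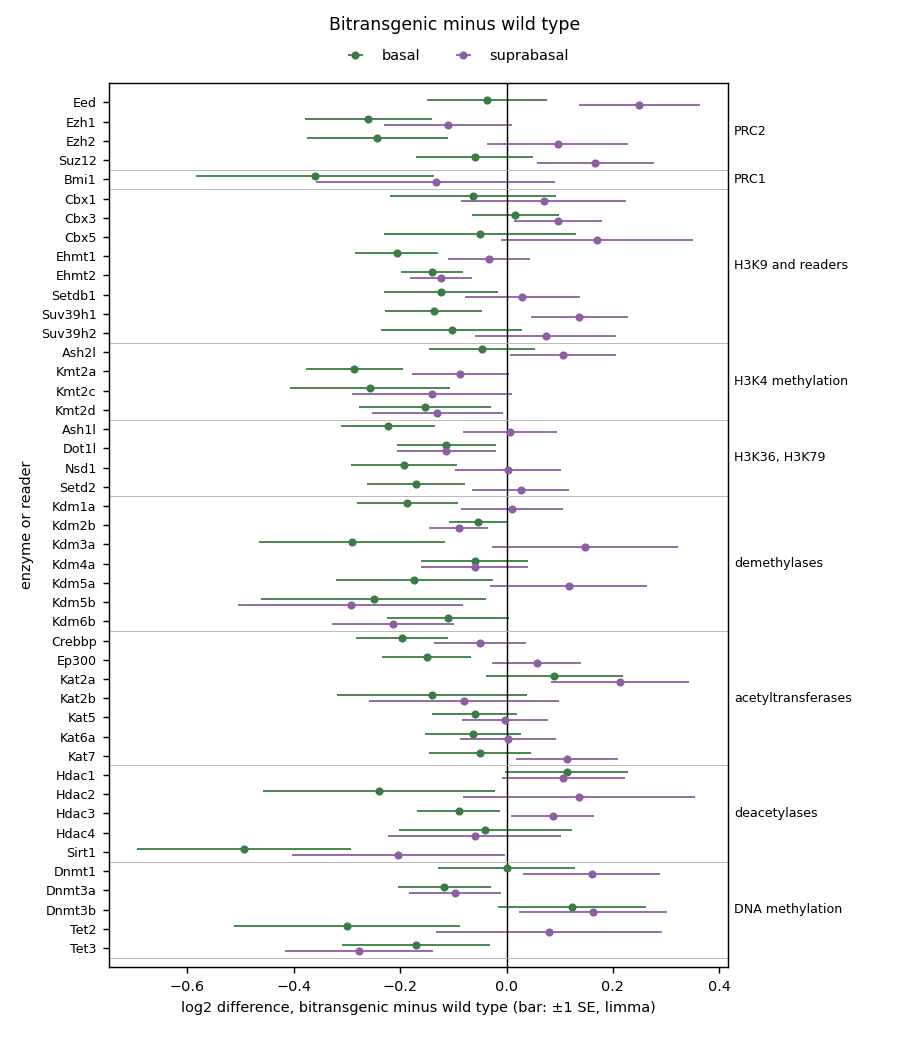
Log2 difference of bitransgenic minus wild-type signal for 45 genes by role in basal (green) and suprabasal cells (purple), as estimates with bars of ±1 SE from the limma fit. In basal cells 40 of 45 points lie left of 0 with Sirt1 farthest at -0.49; in suprabasal cells 26 lie right of 0.

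In suprabasal cells 0 of 45 genes were called either way with limma, where 0% of all clusters were called higher and 0% lower. The median difference was 0.01, against -0.03 over all clusters and 0.06 over the bright ones, with 26 genes above 0 and 19 below. At an unadjusted p under 0.05 it found 0 genes either way, against 1.64% of all clusters higher and 3.58% lower. The groups did not overlap, with bitransgenic higher, in 1 gene, Suz12, against 2.52% of all and 6.18% of the bright clusters. They did not overlap, with bitransgenic lower, in 2 genes, Ehmt2 and Kdm2b, an eraser on lysine 36, against 9.79% of all and 1.88% of the bright clusters.

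Suz12 read 7.30, 7.27 and 7.25 on the wild-type arrays against 7.32, 7.51 and 7.49 on the bitransgenic ones, so its groups were 0.02 apart at the nearest arrays (0.17 ± 0.11). Ehmt2 read 8.92, 8.83 and 8.83 against 8.77, 8.73 and 8.71 (-0.12 ± 0.06, limma adjusted p = 0.866), and it was lower without overlap in both layers. Eed had the smallest p, with 9.58, 9.51 and 9.38 in wild type against 9.53, 9.88 and 9.81, where X721_05 lay inside the wild-type range (0.25 ± 0.11, limma adjusted p = 0.866). Tet3 had the most negative estimate after Kdm5b, -0.28 ± 0.14, from 9.48, 9.09 and 9.63 against 8.95, 9.26 and 9.16, with overlap. The proliferation list had a median of 0.39 in this comparison, with mean levels of 7.56 to 8.50 on wild-type arrays against 8.04 to 8.99. All 8 melanocyte genes had lower means in bitransgenic cells, with a median of -0.52 and 0 of 8 called, and X667_05 stood apart with a mean level of 7.68 against 9.58 to 11.32 on the other suprabasal arrays. The part of either list in the values of the 45 genes was not tested. Without X667_05 the call count was again 0 of 45.

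The genotype by layer interaction tested directly whether the layers differ by different amounts in the 2 genotypes, and 0 of 45 genes were called with limma, as were 0% of all clusters in either direction. The interaction was negative for 37 genes (82.2%) and positive for 6, with a median of -0.15. A negative value means a lower basal minus suprabasal difference in bitransgenic than in wild-type cells. That is a smaller basal excess for some genes and a larger suprabasal excess for others, such as Kdm3a and Tet2. Of the bright clusters 76.1% were negative too, with a median of -0.09, while the median over all clusters was 0.06. After cyclic loess the median was -0.12 over the 45 genes and -0.0013 over the bright clusters, and on male-pattern arrays alone 15 of the 45 genes were positive. At an unadjusted p under 0.05 it found 0 genes, against 8.94% of all clusters above 0 and 1.27% below. The smallest p was that of Suv39h1, whose layer difference was 0.47 in wild-type and 0.19 in bitransgenic skin, an interaction of -0.27 ± 0.13 (limma adjusted p = 0.502). Kdm3a differed most, at -0.44 ± 0.25, followed by Tet2 at -0.38 ± 0.30, Hdac2 at -0.38 ± 0.31 and Ezh2 at -0.34 ± 0.19. A difference between genotypes in how these enzymes change with the layer was therefore not detected with 3 arrays a group.

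Over the 8 roles with more than 1 gene, the medians of the layer difference in wild type were 0.43 for Polycomb repressive complex 2, 0.34 for lysine 9 methylation and its readers, 0.32 for deacetylases, 0.19 for DNA methylation, 0.18 for lysine 36 and lysine 79 methylation, 0.12 for lysine 4 methylation, 0.12 for acetyltransferases and -0.01 for demethylases. In bitransgenic cells they were 0.13, 0.16, -0.03, 0.24, 0.02, -0.01, 0.01 and -0.01 in the same order. The DNA methylation genes thus had the highest bitransgenic median, and the deacetylases went from the third highest in wild type to the lowest. In the basal genotype comparison the medians ran from -0.21 for lysine 4 methylation to -0.06 for acetyltransferases, and every gene of Polycomb repressive complex 2, of lysine 4 methylation, of lysine 36 or lysine 79 methylation and of the demethylases was below 0. Among them, Eed, Suz12, Ash2l, Kdm4a and Kdm6b were above 0 in at least 1 other setting. No role was tested as a group.

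Of 108 other genes of these pathways, such as partners of the complexes and further writers and erasers, 106 were measured. Of these 106 genes, 55 lay above the background mark on no array and 16 on all arrays. Between wild-type layers 3 (2.8%) were called higher in basal cells and 1 (0.9%) lower, against 0.406% and 1.04% of all clusters. Their median difference was 0.09. At an unadjusted limma p under 0.05, 20 (18.9%) were higher and 4 (3.8%) lower. The shares were 6.08% and 16.7% of all clusters and 14.5% and 7.0% of the bright clusters. Rbbp4, a histone-binding subunit of Polycomb repressive complex 2 and of deacetylase complexes, read 8.49, 8.57 and 8.58 in basal and 8.26, 8.13 and 7.96 in suprabasal cells (0.43 ± 0.07, limma adjusted p = 0.0381). Atrx, an X-linked remodeller that deposits a histone variant in heterochromatin, read 8.56, 8.78 and 8.57 against 8.23, 8.01 and 7.98 (0.56 ± 0.09, limma adjusted p = 0.0360). Pcgf5, a subunit of a variant Polycomb repressive complex 1, differed by 0.51 ± 0.09 (limma adjusted p = 0.0400).

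Cbx7, a Polycomb reader of lysine 27 methylation, was the 1 gene called lower in basal cells, at 6.97, 6.79 and 6.86 against 7.21, 7.18 and 7.18 (-0.32 ± 0.06, limma adjusted p = 0.0405). In bitransgenic cells it read 7.10, 7.05 and 7.05 in the basal and 7.05, 7.02 and 6.96 in the suprabasal layer, and its interaction of 0.37 did not pass (limma adjusted p = 0.399). Cbx7 and Pcgf5 lay below the background mark on all 12 arrays. Rbbp4 and Atrx lay below it on every wild-type suprabasal array, and each lay at or below it on part of the wild-type basal arrays. Over 27 other settings these 4 genes stayed past the threshold in 15 (Atrx), 13 (Rbbp4), 12 (Pcgf5) and 11 (Cbx7). Not all of these are separate checks, since the deposited series matrix and the mean of all clusters of a member leave the values of these 4 genes unchanged. In the other comparisons 0 of the 106 were called with limma. The smallest p between basal genotypes were those of Kmt2e, a relative of the lysine 4 methyltransferases (-0.47 ± 0.12, limma adjusted p = 0.218), Kat6b, an acetyltransferase (-0.44 ± 0.13, limma adjusted p = 0.242) and Cbx7 (0.19 ± 0.06, limma adjusted p = 0.248). At an unadjusted p under 0.05, 2 of the 106 (1.9%) were higher and 8 (7.5%) lower in bitransgenic basal cells, against 9.38% and 3.73% of all clusters and 3.3% and 6.6% of the bright ones, with a median of -0.06.

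The 2 demethylase genes of the Y chromosome followed the Xist and Ddx3y pattern. The 2 X-linked relatives overlapped between patterns with the layers pooled, but Kdm5c did not overlap within either layer. Kdm5d, a lysine 4 demethylase on the Y chromosome, read 7.01 to 7.39 on all male-pattern arrays and 5.31, 5.37, 5.33 and 5.35 on the 4 female-pattern arrays. Uty, the Y-linked relative of Kdm6a, read 6.96 to 7.32 and 5.06 to 5.12. The male-pattern bitransgenic arrays X721_05 read 7.11 and 7.14 for Kdm5d, close to the wild-type values of 7.01 to 7.39. Kdm5c, the X-linked relative of Kdm5d, read 9.05 to 9.22 on the female-pattern arrays and 8.74 to 9.06 on the male-pattern arrays. Within layers it was higher on female-pattern arrays, at 9.22 and 9.21 against 8.87 to 9.06 in basal cells. In suprabasal cells it read 9.19 and 9.05 against 8.74 to 8.93. Kdm6a, an X-linked eraser of lysine 27 methylation, spread from 7.55 to 8.68 on male-pattern arrays and lay at 8.18 to 8.24 on female-pattern arrays. Within layers Kdm6a overlapped in basal cells. In suprabasal cells it read 8.18 and 8.22 on female-pattern arrays against 7.55 to 8.13, without overlap. The genotype differences of Kdm5d and Uty therefore move with the sex pattern.

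**Figure D5:**
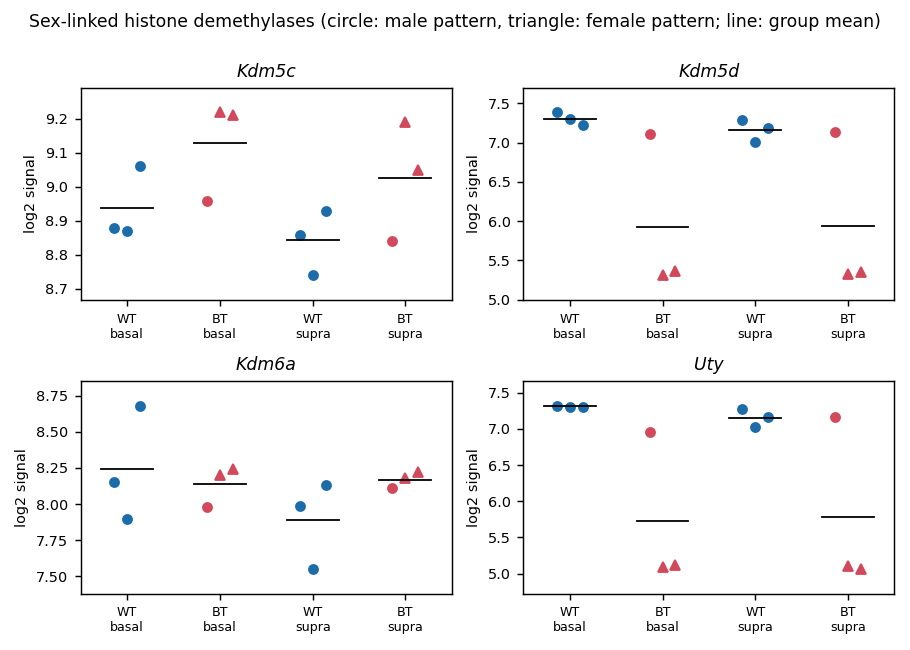
Log2 signal by array of sex-linked demethylases in the 4 groups (WT, wild type; BT, bitransgenic; supra, suprabasal); circles are arrays with the male and triangles with the female pattern of Xist and Ddx3y, and black lines are means of 3 arrays. Kdm5d and Uty fall near 5 on the triangles and near 7 on the circles, also for the bitransgenic circles.

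In the authors' deposited table, 0 clusters had a q under 0.05 in any of the 4 comparisons. By the unadjusted p of the authors' deposited table, 14 of the 45 genes were higher and 1 lower between wild-type layers at p under 0.05, against 4.26% and 13.7% of all clusters. Between bitransgenic layers the authors' deposited table gives 4 higher and 2 lower, against 4.10% and 1.81%. Between basal genotypes the authors' deposited table gives 0 and 4, against 6.90% and 2.67%, and between suprabasal genotypes 0 and 2, against 1.22% and 5.60%. For Suv39h1 between wild-type layers the authors' deposited table gives a fold of 1.38 and a q of 0.129. With 3 arrays a group, their number sets how precise these values are.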

How the data were processed

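RNA of 12 sorted keratinocyte samples was hybridised to Affymetrix MTA-1_0 arrays. The authors made log2 signals with RMA and Affymetrix Expression Console, per the submitters' processing notes; genome build mm10 and NetAffx build 34 annotation are named per the file headers. The deposited results table also holds signed fold changes, p-values and q-values of an unpaired Student test, which the authors made. No source says which procedure gave the q-values. The deposited series matrix held the same log2 values (largest difference 0).

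Of 72688 probe sets, 6732 controls were left out. The platform annotation gives 30638 of the 65956 clusters 1 symbol, 2176 several and 33142 none; Suv39h1 and Ash1l were named from the results table. Members with several clusters were read from the one with the highest mean. A model of 4 group means over 12 arrays was fitted with limma 3.58.1 (R 4.3.3; lmFit, eBayes) and p-values were adjusted by Benjamini-Hochberg over all clusters, called at 0.05. The fit was tested on simulated data. The background mark is the 95th percentile of 5222 intronic controls of an array.

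The genes named are all members; among other chromatin genes, those called, or else those with the smallest p; the sex-linked demethylases; and Xist, Ddx3y, Lmna, Mki67, Krt14, Krt10 and Dct. Further numbers came from Python 3.11.15 with pandas 2.3.3. The members and lists were chosen with earlier results of these data known. Deviations from group means correlated at 0.14 to 0.53 for arrays of the same code in both layers (5 pairs, median 0.27). For different codes they ran from -0.42 to 0.49 (49 pairs, median -0.07), so the ranges overlap. A pairing of samples by the code thus rests on a higher median in these data and not on the labels. Among the different codes, the 3 suprabasal pairs that share the first number of the code across genotypes correlated at 0.31, 0.33 and 0.49. That number may therefore pair the suprabasal genotypes. In the basal layer the 2 such pairs were at -0.16 and 0.23. Alternatives were centring, loess, filters, moderation, weights, blocks, a sex term, Student tests and leaving out each array. Listed promoter windows come from RefSeq.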

Additional observations from a re-analysis of the deposited data

How the results depend on the processing

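The count of 1 gene called higher between wild-type layers was 0 when each array was centred on its median, after cyclic loess, with trend and robust moderation, with a fixed replicate block, with only the 2 groups compared, with either Student test (log2 or unlogged signals) and on male-pattern arrays only, which was chosen after seeing the data. It was 2 among clusters above the median level, 3 among clusters with 1 symbol, 3 with array weights and 5 with a random replicate block by the code. Leaving out 1 array gave 0 to 8: 0 without each of 8 arrays (wild-type basal X682_11 and X721_08, all 3 bitransgenic basal arrays, wild-type suprabasal X682_11 and X721_08, bitransgenic suprabasal X682_05), 2 without wild-type suprabasal X667_06, 3 without wild-type basal X667_06 and 8 without bitransgenic suprabasal X721_05. Fewer arrays in the fit leave fewer degrees of freedom; the cause of the other changes was not tested. Over all clusters 957 were called in this comparison, against 342 after centring, 262 after loess, 476 with trend and robust moderation, 4 with only the 2 groups, 0 with the Student tests or the fixed replicate block, 1520 among clusters above the median level, 1711 with 1 symbol, 1860 with array weights, 3600 with the random replicate block and 0 to 2903 with 1 array left out. Against 0 clusters as reported, 87 were called between basal genotypes without wild-type basal X667_06 and 126 between bitransgenic layers without bitransgenic suprabasal X667_05.

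The median wild-type layer difference of the 45 genes was 0.27 after centring, which moved the median of all clusters from -0.05 to 0.05 and of the bright clusters from 0.11 to 0.21; after loess it was 0.10, with the bright clusters at -0.01. The median interaction was -0.26 after centring, which moved that of all clusters from 0.06 to -0.04, -0.07 on male-pattern arrays and -0.12 after loess, with the bright clusters at -0.0013. In the other 4 comparisons 0 of 45 genes were called in every setting run, replicate block included. A replicate block by the first number of the code, added after seeing the data and run for the suprabasal genotype comparison only, gave 0 of 45 there as well. No called value changed sign. Signals at or below the background mark on every array limit 9 genes, Suv39h1, Suz12 and Kat2b among them.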
